A study of Mus musculus with 14 samples.

Results

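The 34 genes described here act in glycolysis, in the handling of lactate and pyruvate, or in the response to low oxygen. They were chosen by name, as the rows whose symbol equals 1 of 34 listed symbols, and all 34 were found among the 23284 symbols counted in each sample. Transcripts were counted by RNA-seq in mouse forelimb buds of 4 groups. At embryonic day E10.0, staged as 30 somites, there were 3 wild-type and 4 *Smad4*Δ/Δc mutant embryos, and at E10.5, staged as 35 somites, again 3 wild-type embryos and 4 mutants. SMAD4 is the shared partner of the SMAD proteins that carry BMP and TGFβ signals to the nucleus. All embryos, controls included, were of the NMRI strain and carried the PrxCreT/+ transgene, in which the limb enhancer of *Prrx1* drives CRE recombinase in the limb bud mesenchyme. The controls were *Smad4*+/+, and the mutants had 1 *Smad4* allele deleted in all cells and the other inactivated by CRE in the mesenchyme, so that ectoderm, blood vessels and blood kept a functional allele. Each library held both forelimb buds of 1 embryo, so that the replicates were separate embryos.

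Glycolysis turns glucose into pyruvate in the cytoplasm. Lactate dehydrogenase can then reduce pyruvate to lactate, which leaves the cell through monocarboxylate transporters, or pyruvate can enter mitochondria through the pyruvate dehydrogenase complex. When oxygen is scarce, prolyl hydroxylases of the EGLN family no longer mark the hypoxia-inducible factors (HIFs) for breakdown, and HIFs bind short core sequences near genes such as those of glucose transport, glycolysis and blood vessel growth. Proliferating embryonic tissues often use glycolysis also when oxygen is present.

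The promoter sequences of the members were read for the core letters of a hypoxia response element, ACGTG or GCGTG, on either strand. RefSeq (build GRCm38.p6) windows from 250 bases before to 50 bases after a start site were given for 31 of the 34 members, all but *Slc2a3*, *Ndrg1* and *Bhlhe40*. In the first window of each gene, 25 of these 31 members (80.6%) held ACGTG or GCGTG, against 43.8% of the 27025 genes with a window and 64% of the 8833 tested genes with a window. ACGTG was in 58.1% of the members' windows, against 19.7% of all and 25.8% of the tested genes. GCGTG was in 64.5% of the members' windows, against 32.5% and 52.9%. The member symbols had been listed as hypoxia response genes, so that these shares describe the list. A match is a run of letters and not a measured binding site. ACGTG is also part of CACGTG, the E-box read by MYC and other factors. The sites of 7 members whose transcript levels differed between groups in the comparisons that follow are printed, each from the 5′ to the 3′ end of the gene's strand, with the 5 core letters in capitals (CACGT is ACGTG read on the other strand):
Slc2a1: gtcccgccccggACGTGctccccaggccc
Hk2: aatgagcacatcCACGTcactgtccgggg
Ldha: ggcccagcctacACGTGggttcccgcacg
Ldhb: gcgggggagagcGCGTGcacactccagcc
Slc16a1: cggcgccgggtcACGTGgcgggaaggggg
Slc16a3: caggcagcggtgACGTGcgcgggggacgt
Ddit4: agaacgttgcgaACGTGcgcccggtgcct

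Each whole promoter window matched the mm9 genome (NCBIM37) at 1 place, which gave the mm9 positions of the printed bases. The *Slc2a1* site (chr4:118781302-118781330, plus strand) began its core 36 bases before the RefSeq start and lay in an exon of *Slc2a1* as annotated in GENCODE vM1. The *Hk2* site (chr6:82724484-82724512, minus strand) lay 52 bases before the start, outside annotated genes. The *Ldha* site (chr7:54101115-54101143, plus strand) lay 47 bases before the start, in an annotated intron of *Ldha*. This window held 5 matches to ACGTG over both strands, the most of any member's window, where a palindrome CACGTG counts on each strand. At the printed site the letters formed this palindrome, as they did in *Slc16a1* (chr3:104442376-104442404, plus strand), 199 bases before the start and outside annotated genes. The *Ldhb* site (chr6:142456587-142456615, minus strand) lay 126 bases before the start, outside annotated genes, and the window of *Ldhb* held this GCGTG and no ACGTG. The *Slc16a3* site (chr11:120810342-120810370, plus strand) lay 27 bases before the start in an annotated intron of *Slc16a3*, and the *Ddit4* site (chr10:59414689-59414717, minus strand) lay 187 bases before the start, outside annotated genes.

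Between 34066930 and 61691258 reads per embryo were counted on genes, and expression is given as CPM, a gene's reads scaled to the same library total, with edgeR's TMM factors. *Smad4* itself had 161 ± 8.43 CPM in controls and 39.8 ± 4.19 CPM in mutants of E10.0 (SD, n=3 and n=4). At E10.5 it had 166 ± 2.27 and 37.0 ± 3.43 CPM, and the genotypes overlapped at neither stage. Mutant replicates 4 and 5 of both stages stood apart: the ribosomal RNA precursor *Rn45s* took 1.72% to 8.05% of their reads, against 0.151% to 0.478% in the other 10 libraries. All 4 of these libraries are mutants, and the other mutants of both stages were among the 10 with little *Rn45s*. The part of these 4 libraries in the genotype differences cannot be told apart from genotype, and results are given with and without them. The 12393 genes tested reached 1 CPM in 3 or more embryos and included 31 members, while *Eno1*, *Eno2* and *Adm* fell under this limit. A gene was called at an adjusted *P* of at most 0.1 (edgeR's exact test, Benjamini-Hochberg over all genes tested) with a fold of 1.2 or more. The standard error (SE) printed with a log2 fold change was taken from the spread of log2(CPM + 1) over embryos, and is too small for genes of a few CPM.

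At E10.0, the mutants had less *Ddit4* and less *Ndrg1* than wild type, and the other 29 members tested did not pass the thresholds. These 2 of 31 members stand beside 6.61% of all genes tested that were called in this comparison, 3.33% higher and 3.28% lower in mutants. *Ddit4* (mm9 chr10:59412423-59414518, minus strand) encodes REDD1, an inhibitor of mTORC1 induced by hypoxia, glucocorticoids and other stresses. Its level was 36.9, 29.1 and 29.5 CPM in wild-type replicates 1, 2 and 3, and 22.1, 15.3, 22.9 and 22.8 CPM in mutant replicates 1, 3, 4 and 5. All mutants lay below all wild-type embryos, and mutant replicate 3 was the lowest. This was a log2 fold change of -0.62 (SE 0.171, adjusted *P*=0.000153, edgeR's exact test). It was -0.49 without mutant replicate 3 (adjusted *P*=0.000749) and -0.75 without mutant replicates 4 and 5 (adjusted *P*=3.4e-05), so that *Ddit4* was called with and without the libraries that stood apart. In these bulk samples, fewer cells of a type and less RNA per cell cannot be told apart.

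*Ndrg1* (chr15:66760883-66801202, minus strand), a cytoplasmic protein induced by hypoxia and differentiation, was measured at a low level. It had 7.36, 6.69 and 6.91 CPM in wild-type replicates 1, 2 and 3 at E10.0 and 6.67, 4.17, 4.37 and 4.75 CPM in mutant replicates 1, 3, 4 and 5. The groups did not overlap, but mutant replicate 1 nearly reached the lowest wild-type embryo. Its log2 fold change was -0.48 (SE 0.134, adjusted *P*=0.0504, edgeR's exact test). The call was lost without any 1 of mutant replicates 3 (adjusted *P*=0.145), 4 (0.114) or 5 (0.139) or wild-type replicates 1 (0.184) or 3 (0.236), and without mutant replicates 4 and 5 together (-0.35, adjusted *P*=0.216). At E10.5, *Ndrg1* again did not overlap between genotypes, with 7.93, 7.25 and 7.22 CPM in wild type and 6.28, 5.62, 5.52 and 5.70 CPM in mutants, at a log2 fold change of -0.37 that did not pass (adjusted *P*=0.299). Exons of *Ndrg1* overlap 2 other annotated genes on the other strand (*Gm17035*, *Gm2895*), whose reads an unstranded library cannot tell apart. The same holds for parts of *Slc2a1*, *Hk1*, *Gpi1*, *Pfkp*, *Tpi1*, *Car9*, *Bhlhe40* and *Ankrd37*, whose exons also overlap other annotated genes.

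Without mutant replicates 4 and 5, 6 of 30 members tested were called at E10.0, beside 16.4% of all genes (6.23% higher and 10.2% lower). *Ddit4* was joined by 4 members that were lower in mutants, the glucose transporter *Slc2a1* (log2 fold change -0.30, adjusted *P*=0.0428), the phosphofructokinases *Pfkl* (-0.32, adjusted *P*=0.0413) and *Pfkm* (-0.30, adjusted *P*=0.0201) and the lactate exporter *Slc16a3* (-0.41, adjusted *P*=0.0765), all by edgeR's exact test. *Pdk1*, the kinase that inhibits pyruvate dehydrogenase, was higher in them (0.41, adjusted *P*=0.0335). With all embryos the same log2 fold changes were -0.14 (*Slc2a1*), -0.11 (*Pfkl*), -0.14 (*Pfkm*), -0.29 (*Slc16a3*) and 0.10 (*Pdk1*), and none passed.

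The values per embryo show how far these calls rest on the left-out libraries. *Slc2a1* (GLUT1, the main glucose transporter of many embryonic cells) had 127, 123 and 126 CPM in wild type at E10.0, and 101 and 101 CPM in mutant replicates 1 and 3 but 139 and 116 CPM in replicates 4 and 5. Replicate 4 thus lay above all wild-type embryos, and the other 3 mutants below them. *Pfkl*, the liver-type subunit of phosphofructokinase, had 220, 220 and 222 CPM in wild type and 157, 191, 260 and 208 CPM in mutant replicates 1, 3, 4 and 5. *Pfkm*, the muscle-type subunit, had 66.8, 65.7 and 75.0 CPM in wild type and 55.6, 55.4, 70.6 and 69.3 CPM in the mutants. In both genes replicates 1 and 3 lay below wild type, and at least 1 of replicates 4 and 5 lay within or above the wild-type range. *Pdk1* had 63.9, 74.9 and 53.0 CPM in wild type and 96.3, 72.2, 54.6 and 51.8 CPM in mutant replicates 1, 3, 4 and 5, so that its groups overlapped whichever mutants were kept.

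At E10.5, *Slc16a3* was the 1 member of 31 called between genotypes, beside 3.73% of all genes tested (2.19% higher and 1.54% lower). *Slc16a3* (chr11:120809794-120822182, plus strand) encodes MCT4, the monocarboxylate transporter of cells that export much lactate. It had 68.1, 49.2 and 38.3 CPM in wild-type replicates 1, 2 and 3 and 38.02, 30.9, 40.3 and 34.4 CPM in mutant replicates 1, 2, 4 and 5. The wild-type embryos spread widely, and the groups overlapped, since mutant replicate 4 exceeded wild-type replicate 3. The log2 fold change was -0.53 (SE 0.249, adjusted *P*=0.0208, edgeR's exact test) and -0.58 without mutant replicates 4 and 5 (adjusted *P*=0.0278), when it was again the 1 member called, beside 4.27% of all genes (2.60% higher and 1.68% lower). It did not pass without wild-type replicate 1 (-0.28, adjusted *P*=0.572), without mutant replicate 2 (-0.46, adjusted *P*=0.120) or under edgeR's quasi-likelihood test (adjusted *P*=0.136). Part of an exon of *Slc16a3* overlaps *Csnk1d* on the other strand.

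At E10.0, *Slc16a3* had 65.3, 71.4 and 64.4 CPM in wild type and 48.6, 50.8, 68.5 and 52.3 CPM in mutants, of which replicate 4 alone reached the wild-type range (adjusted *P*=0.308 with all embryos). The mutant embryos at E10.5 were the lowest group of the 4 in mean *Slc16a3*, at 35.9 ± 4.12 CPM.

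**Figure D1:**
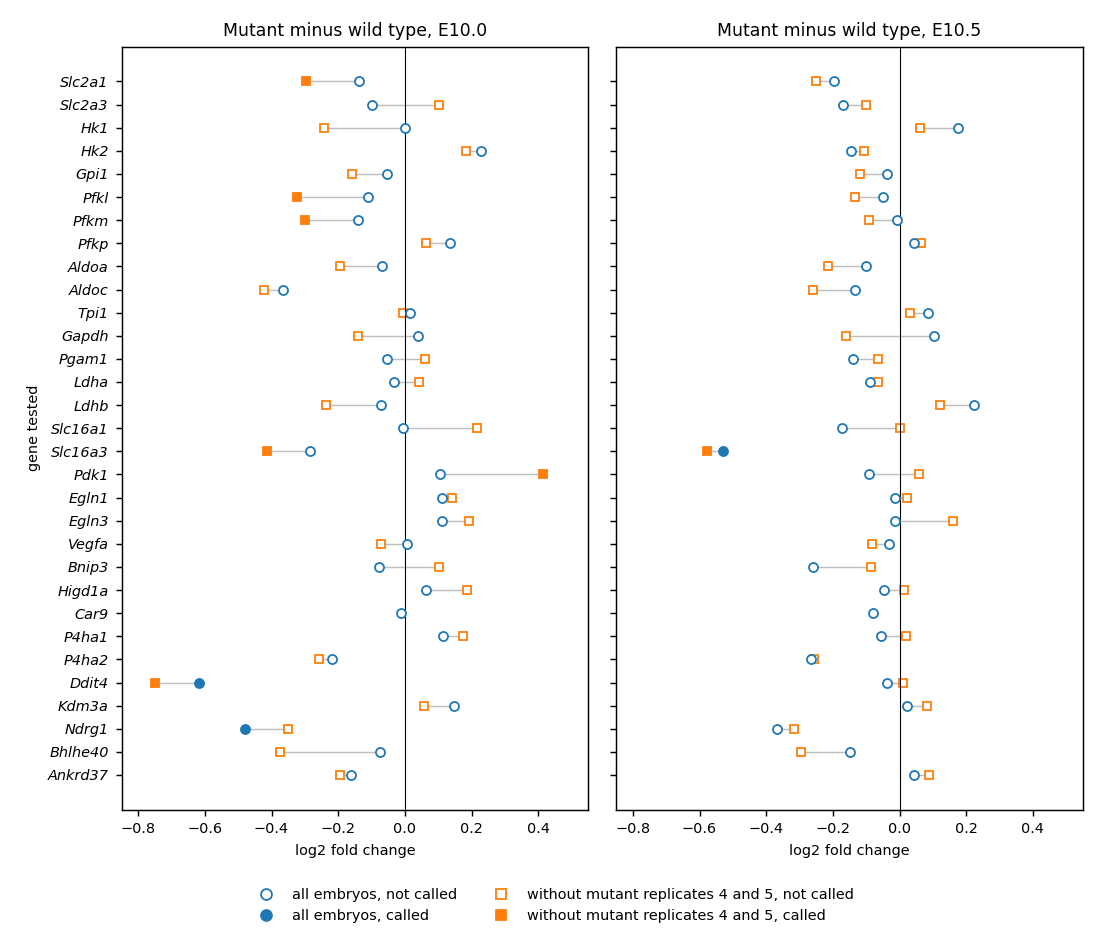
Log2 fold change of mutant over wild type (horizontal axis) for the 31 members tested, at E10.0 (left) and E10.5 (right). Circles are fits of all embryos and squares fits without mutant replicates 4 and 5, filled where the member passed the thresholds; *Car9* could not be tested in the second fit. *Ddit4* and *Ndrg1* are the filled circles at E10.0 and *Slc16a3* at E10.5.

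Across the members tested, the median log2 fold change between genotypes was -0.05 at E10.0 and -0.06 at E10.5, beside -0.02 and -0.01 over all genes tested. It was below 0 in 19 of 31 members at E10.0 and in 24 of 31 at E10.5, but without mutant replicates 4 and 5 in 17 of 30 at each stage. The median size, whatever the sign, was 0.10 at E10.0 and 0.09 at E10.5, beside 0.12 and 0.09 over all genes. The groups did not overlap for 3 members at E10.0 (*Aldoc*, *Ddit4* and *Ndrg1*), beside 17.8% of all genes, and for 2 at E10.5 (*P4ha2* and *Ndrg1*), beside 13.0%. The mean of log2(CPM + 1) over all 34 members was 5.48 ± 0.023 in wild type and 5.42 ± 0.067 in mutants at E10.0 (SD over embryos). At E10.5 it was 5.45 ± 0.076 and 5.37 ± 0.033. The embryos of the genotypes overlapped at both stages, with values from 5.46 to 5.50 and from 5.33 to 5.50 at E10.0, and from 5.38 to 5.53 and from 5.32 to 5.39 at E10.5.

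Between the stages, more members were called than between genotypes, and the same held for all genes tested. In wild type, hexokinase 2 and *Ldha* were lower at E10.5 than at E10.0 and *Ldhb* was higher; these 3 of 31 stand beside 10.1% of all genes tested (5.39% higher and 4.74% lower). In the mutants, 10 of 31 members were called, beside 19.2% of all genes (10.8% higher and 8.40% lower). Lower at E10.5 were *Slc2a1*, *Hk2*, *Aldoa*, *Pgam1*, *Ldha*, *Slc16a1* and *Slc16a3*, and higher were *Hk1*, *Ldhb* and *Ddit4*. The median size of the change between stages was 0.23 over the members in wild type and 0.21 in mutants, beside 0.14 and 0.14 over all genes. The stages did not overlap for 15 members in wild type (37.0% of all genes) and for 6 in mutants (20.0% of all genes).

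*Hk2* (chr6:82675019-82724448, minus strand), the hexokinase induced by growth signals and bound to mitochondria, had the largest fall among the members in the mutants. In wild-type replicates 1, 2 and 3 it had 82.3, 102 and 82.9 CPM at E10.0 and 83.5, 64.2 and 68.0 CPM at E10.5. In the mutants it had 100.2, 99.6, 116 and 101 CPM in replicates 1, 3, 4 and 5 at E10.0 and 70.0, 62.5, 64.6 and 62.7 CPM in replicates 1, 2, 4 and 5 at E10.5. The stages overlapped in wild type, through replicate 1 at E10.5, and were far apart in the mutants. *Hk2* thus had a log2 fold change of -0.31 in wild type (SE 0.151, adjusted *P*=0.0660) and of -0.68 in mutants (SE 0.064, adjusted *P*=1.6e-10, both edgeR's exact test). The wild-type call was lost without replicate 2 at E10.0 (adjusted *P*=0.477) or replicate 2 (0.326) or 3 (0.373) at E10.5, whereas the mutant call held in every alternative run.

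The other hexokinase, *Hk1*, a housekeeping isoform, moved the other way in mutants. It had 33.8, 35.8, 46.8 and 50.5 CPM in mutant replicates 1, 3, 4 and 5 at E10.0 and 45.9, 47.1, 58.9 and 51.1 CPM in replicates 1, 2, 4 and 5 at E10.5 (log2 fold change 0.28, SE 0.16, adjusted *P*=0.0858, edgeR's exact test). Replicates 4 and 5 were the highest at each stage, and within each kind of library the later stage was higher. The call grew without replicates 4 and 5 (0.42, adjusted *P*=0.00234). It was lost under the quasi-likelihood test (adjusted *P*=0.120) and DESeq2 (0.101), and without any 1 of replicates 1 (0.238) or 3 (0.290) of E10.0 or 4 (0.281) or 5 (0.145) of E10.5. In wild type, *Hk1* had 43.2, 37.9 and 43.9 CPM at E10.0 and 48.9, 41.97 and 43.8 CPM at E10.5, which did not pass (adjusted *P*=0.717).

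The lactate dehydrogenase subunits moved in opposite directions in both genotypes. *Ldha* (chr7:54096845-54110997, plus strand), the subunit of muscle and of proliferating cells, had 1438, 1638 and 1398 CPM in wild type at E10.0 and 1357, 1210 and 1080 CPM at E10.5. In the mutants it had 1421, 1617, 1511 and 1284 CPM at E10.0 and 1232, 1074, 1121 and 1139 CPM at E10.5. No embryo of E10.5 reached the lowest embryo of E10.0 of its own genotype. The log2 fold change was -0.30 in wild type (SE 0.118, adjusted *P*=0.0684) and -0.35 in mutants (SE 0.082, adjusted *P*=0.00179, both edgeR's exact test). The wild-type call was lost without replicate 2 at E10.0 (adjusted *P*=0.412) or replicate 2 (0.192) or 3 (0.486) at E10.5.

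*Ldhb* (chr6:142438769-142456477, minus strand), the heart-type subunit, had 197, 156 and 185 CPM in wild type at E10.0 and 228, 229 and 227 CPM at E10.5. In the mutants it had 160, 141, 171 and 211 CPM at E10.0 and 229, 264, 290.3 and 282 CPM at E10.5. Again the stages did not overlap in either genotype, now with E10.5 above E10.0. Between stages, *Ldhb* changed by 0.35 on the log2 scale in wild type (SE 0.0999, adjusted *P*=0.0697) and by 0.64 in mutants (SE 0.143, adjusted *P*=3.0e-07, both edgeR's exact test). The wild-type call was lost under the quasi-likelihood test (adjusted *P*=0.119) and without replicates 2 (0.428) or 3 (0.137) of E10.0 or 1 (0.122), 2 (0.168) or 3 (0.214) of E10.5. In reads, there were 12.2 ± 2.28 of *Ldhb* per 100 of *Ldha* in wild type and 11.9 ± 3.25 in mutants at E10.0, which became 18.9 ± 2.10 and 23.5 ± 3.29 at E10.5. The embryos ran from 8.74 to 16.5 at E10.0 and from 16.8 to 25.9 at E10.5, so that the lowest of E10.5 just exceeded the highest of E10.0. Of the 50-base words of the transcript, 29.1% in *Ldha* and 33.6% in *Ldhb* occur elsewhere in the genome. Unique mapping can lose such reads, which was not measured, and this ratio is not read as one of molecules.

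The lactate transporters fell between the stages in the mutants. *Slc16a1* (MCT1, which carries lactate in or out) had 174, 175, 130.5 and 126 CPM in mutant replicates 1, 3, 4 and 5 at E10.0 and 125, 130, 102 and 96.98 CPM in replicates 1, 2, 4 and 5 at E10.5. The stages overlapped because replicates 4 and 5 were low at both, and the stages did not overlap within either kind of library. The log2 fold change was -0.41 (SE 0.164, adjusted *P*=0.00324) and -0.45 without replicates 4 and 5 (adjusted *P*=1.9e-05, both edgeR's exact test). In wild type, *Slc16a1* had 151, 162 and 142 CPM at E10.0 and 130, 128 and 127 CPM at E10.5, which did not overlap but did not pass (-0.24, adjusted *P*=0.270). *Slc16a3* fell by 0.62 on the log2 scale in the mutants (SE 0.137, adjusted *P*=0.000259), with no overlap of the stages, and the value in wild type was -0.37 (adjusted *P*=0.157).

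*Slc2a1* in the mutants fell from 101, 101, 139 and 116 CPM to 92.8, 85.7, 102 and 92.8 CPM. The stages overlapped through replicate 4 of E10.5. The log2 fold change was -0.29 (SE 0.118, adjusted *P*=0.0329, edgeR's exact test), and the call was lost without replicate 4 of E10.0 (adjusted *P*=0.202), replicate 2 of E10.5 (0.141) or replicates 4 and 5 of both stages (-0.17, adjusted *P*=0.357). In wild type, *Slc2a1* had 122, 108 and 90.3 CPM at E10.5, all below the wild-type embryos of E10.0 (-0.23, adjusted *P*=0.253).

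*Pgam1*, phosphoglycerate mutase, had 839, 845, 789 and 679 CPM in mutants at E10.0 and 693, 651, 612 and 617 CPM at E10.5 (log2 fold change -0.29, SE 0.084, adjusted *P*=0.00728, edgeR's exact test). The stages overlapped at replicate 5 of E10.0 and replicate 1 of E10.5. Without replicate 1 or 3 of E10.0 the change was -0.26 in each case and fell short of the fold of 1.2, with adjusted *P* of 0.0246 and 0.0497. Copies elsewhere in the genome hold 91.9% of the 50-base words of *Pgam1*, and the part of the transcript from which its reads came was not tested. In wild type it had 813, 868 and 771 CPM at E10.0 and 764, 708 and 654 CPM at E10.5, without overlap (-0.21, adjusted *P*=0.214). *Aldoa*, the main aldolase, fell in mutants from 569 ± 88.3 to 466 ± 46.1 CPM (-0.29, SE 0.131, adjusted *P*=0.0376). This call was lost without replicate 4 of E10.0 (adjusted *P*=0.217) or replicates 1 (0.113) or 2 (0.174) of E10.5, and 14.8% of its words have copies.

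*Ddit4* rose most of all members between the stages of the mutants. From the low values of E10.0 it reached 39.2, 40.8, 38.1 and 37.7 CPM in mutant replicates 1, 2, 4 and 5 at E10.5, a log2 fold change of 0.91 (SE 0.136, adjusted *P*=2.8e-12, edgeR's exact test). In wild type it had 42.4, 40.0 and 37.6 CPM at E10.5, also above all wild-type embryos of E10.0 (0.33, adjusted *P*=0.121). At E10.5 the genotypes therefore overlapped (log2 fold change -0.04, adjusted *P*=0.984). A difference of the genotype effect between stages was tested as an interaction term (E10.5 minus E10.0) with edgeR's quasi-likelihood test. For *Ddit4* it was 0.58 (unadjusted *P*=0.00447, adjusted *P*=0.466, and 0.194 by DESeq2), and for *Hk2*, which had means of 89.0 and 104 CPM in wild type and mutants at E10.0 and 71.9 and 65.0 CPM at E10.5, it was -0.37 (unadjusted *P*=0.0166, adjusted *P*=0.728). At an adjusted *P* of at most 0.1, with no fold limit, none of the 31 members passed by this test, beside 0.186% of all genes, or by DESeq2, beside 0.702%. An unadjusted *P* under 0.05 was found for these 2 members, beside 5.76% of all genes. A loss of the *Ddit4* difference between E10.0 and E10.5 was thus not established by the test of the difference itself.

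**Figure D2:**
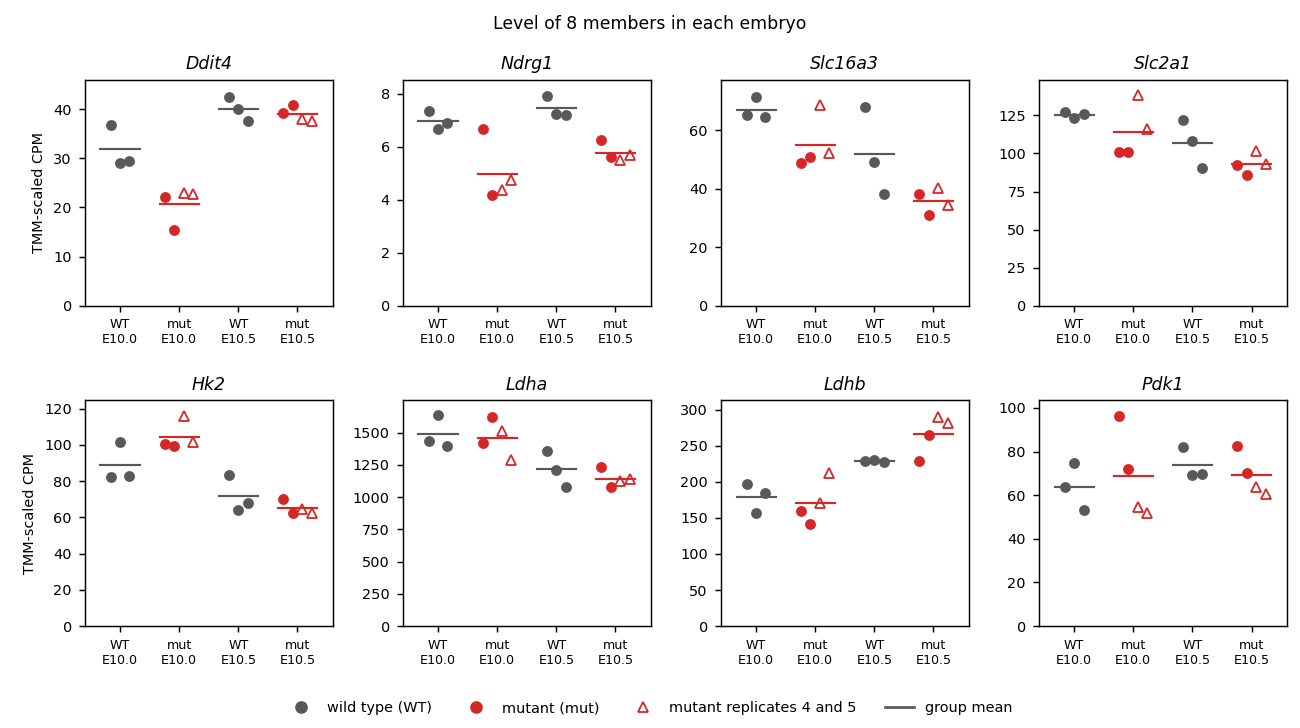
Level of 8 members in each embryo, in TMM-scaled CPM (vertical axes from 0), for wild type (grey) and mutants (red) at both stages. Horizontal lines are group means and open triangles mutant replicates 4 and 5; all 4 mutants at E10.0 lie below all wild-type embryos for *Ddit4* and *Ndrg1*, and the mutants at E10.5 have the highest mean of *Ldhb*.

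**Figure D3:**
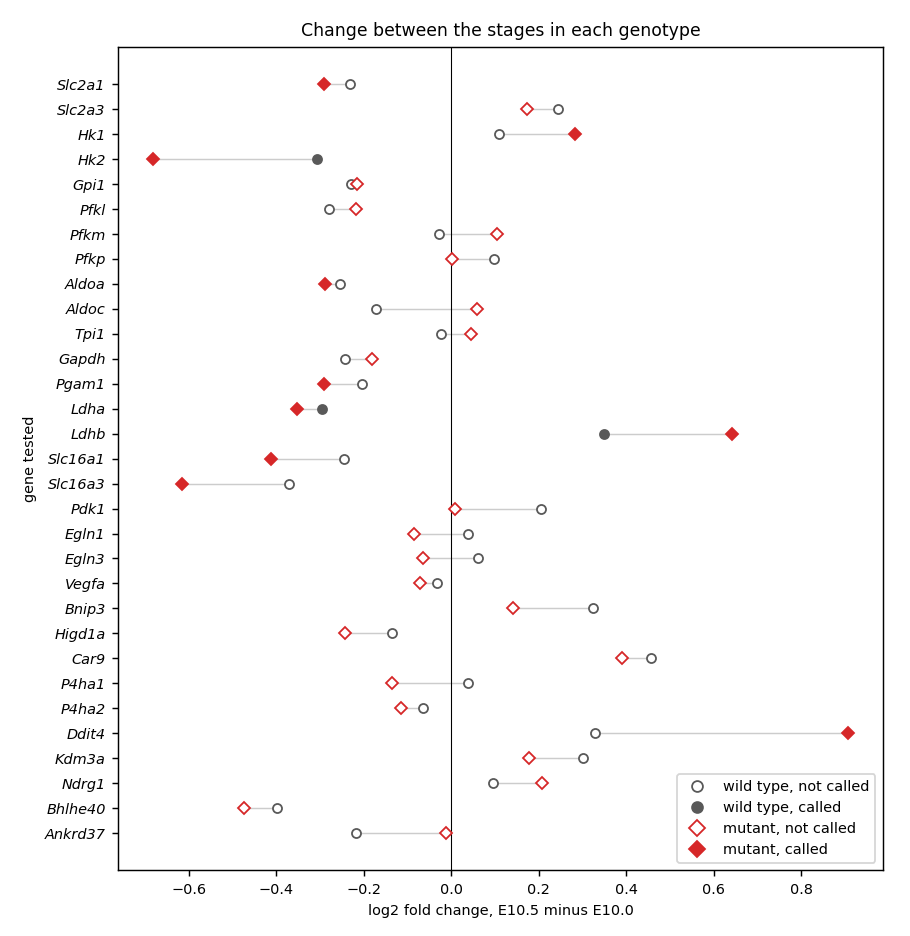
Log2 fold change of E10.5 over E10.0 (horizontal axis) of the 31 members tested, in wild type (circles) and mutants (diamonds), filled where the thresholds were passed. *Hk2* at -0.68 and *Ddit4* at 0.91 are the outermost mutant values.

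Without mutant replicates 4 and 5, 7 of 30 members were called between the stages in wild type, beside 14.9% of all genes (7.85% higher and 7.01% lower). The wild-type libraries were the same in both fits, which differed in the dispersion estimate, the scaling and the genes tested. Added were *Pfkl* (-0.27) and *Slc16a3* (-0.36), which were lower at E10.5, and *Ddit4* (0.34) and *Kdm3a* (0.31), which were higher. In the mutants 10 of 30 were called again, beside 17.5% of all genes (9.72% higher and 7.79% lower), with *Slc2a1* lost and *Higd1a* gained (-0.29, adjusted *P*=0.0373). With the replicate number as a block, the 3 numbers present at both mutant stages compare like libraries. In that fit 12 of 31 members were called in the mutants, while the calls over all genes rose from 2374 to 2586. The 12 were the 10 called with all embryos and also *Higd1a* and *Bhlhe40*, both lower at E10.5. No gain particular to the members is read from this count.

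The remaining members are given by their means in the order wild type E10.0, mutant E10.0, wild type E10.5 and mutant E10.5. Among the glucose transporters, *Slc2a3* (GLUT3, of high glucose affinity) had 130.1 ± 13.2, 121 ± 19.8, 154 ± 7.06 and 137 ± 21.8 CPM. It was higher at E10.5 in both genotypes without passing. Per length of annotated exons, *Slc2a1* made up 71.1% ± 2.06 of both transporters in wild type and 70.2% ± 6.12 in mutants at E10.0, but 63.6% ± 4.01 and 63.4% ± 4.83 at E10.5. The length of all annotated exons joined was 7245 bases for *Slc2a3*, against 3959 bases in its longest coding transcript. The size of a share depends on the length used, but in a pair of genes the order of the embryos does not.

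Among the glycolytic enzymes, glucose-6-phosphate isomerase (*Gpi1*) had 363 ± 15.5, 350.3 ± 49.2, 310 ± 9.02 and 302 ± 22.1 CPM. *Tpi1*, triosephosphate isomerase, had 476 ± 26.9, 481 ± 38.7, 469 ± 54.7 and 497 ± 29.7 CPM, and *Gapdh* had 1223 ± 18.0, 1258 ± 199, 1033 ± 84.4 and 1110 ± 225 CPM. None of these enzymes passed between genotypes or stages, and *Tpi1* means lay within 469 to 497 CPM in all groups. *Gapdh*, often taken as a reference gene, ranged from 893 to 1340 CPM in the mutants at E10.5. Copies hold 85.6% of the words of *Gapdh*, 31.4% of *Gpi1* and 23.6% of *Tpi1*. *Aldoa* had 597 ± 22.1 and 500 ± 57.9 CPM in wild type at E10.0 and E10.5, and *Aldoc*, the aldolase of brain, had 1.69 ± 0.246, 1.32 ± 0.206, 1.51 ± 0.192 and 1.39 ± 0.213 CPM.

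Phosphofructokinase transcripts were mostly *Pfkl*. Per exon length it made up 68.3% ± 1.43 and 68.3% ± 2.63 of the 3 isoforms at E10.0, against 64.1% ± 2.06 and 63.6% ± 0.619 at E10.5 in wild type and mutants. The platelet isoform *Pfkp* had 6.50 ± 0.474, 7.15 ± 0.729, 6.95 ± 0.748 and 7.14 ± 0.884 CPM, at most 1.51% of the family in any embryo. *Pfkl* had 182 ± 29.2 and 176 ± 14.8 CPM and *Pfkm* 67.8 ± 4.45 and 67.5 ± 5.29 CPM at E10.5 in wild type and mutants. Among the hexokinases, *Hk1* went from 24.8% ± 3.62 and 21.7% ± 2.97 of the family at E10.0 to 30.5% ± 1.26 and 35.3% ± 3.16 at E10.5, without overlap of the stages in either genotype. *Ldhb* likewise went from 18.7% ± 2.92 and 18.3% ± 4.00 to 26.4% ± 2.16 and 30.7% ± 3.11 of both subunits. These shares were not tested, and their size depends on the exon length used. For *Hk1* this was 8532 bases, against 4278 bases in its longest coding transcript.

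**Figure D4:**
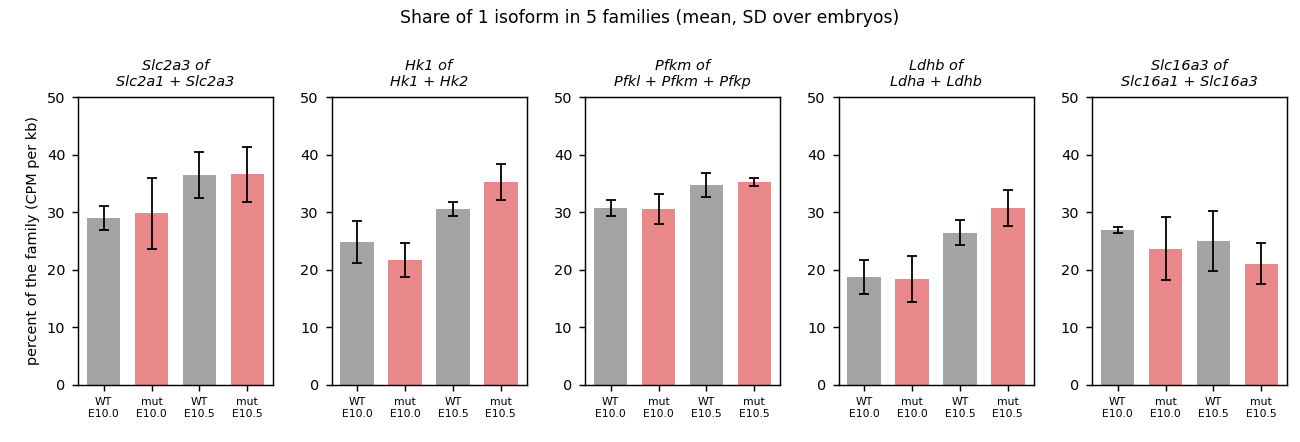
Percentage that 1 isoform made up of its family per exon length (vertical axes, bars from 0), as mean and SD over embryos of wild type (WT) and mutants (mut) at both stages. The size of a share depends on the exon length used, here that of all annotated exons joined. The shares of *Hk1* and *Ldhb* were higher at E10.5 than at E10.0 in both genotypes, and the share of *Slc16a3* was 26.9%, 23.6%, 24.9% and 21.1%.

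The enolase genes had few reads. *Eno1*, the ubiquitous enolase, had 0 to 9 reads per embryo and no level is read from them. Copies hold 72.2% of its 50-base words, and the cause of its low count was not tested. *Eno2*, the neuronal enolase, had 0.497 ± 0.185, 0.352 ± 0.151, 0.819 ± 0.282 and 0.418 ± 0.104 CPM, from 10 to 48 reads per embryo, and was under the limit for testing. *Pdk1* at E10.5 had 73.7 ± 7.10 CPM in controls and 69.1 ± 9.63 CPM in mutants (log2 fold change -0.09, adjusted *P*=0.957).

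The HIF hydroxylases did not pass in any comparison. *Egln1* (PHD2, the main oxygen sensor) had 81.5 ± 4.67, 88.0 ± 4.08, 83.8 ± 3.23 and 83.0 ± 1.83 CPM. *Egln3* (PHD3, itself a HIF target) had 5.37 ± 0.11, 5.81 ± 0.955, 5.61 ± 0.238 and 5.53 ± 1.26 CPM. The largest log2 fold change of either between 2 groups was 0.11, and *Egln1* made up 91.9% to 92.0% of the 2 per exon length in the 4 group means.

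Among the secreted factors, the vessel growth factor *Vegfa* had 46.9 ± 8.23, 47.1 ± 4.57, 45.8 ± 4.45 and 44.9 ± 3.54 CPM. *Adm*, the vasodilator adrenomedullin, had 0.755 ± 0.188, 0.628 ± 0.247, 0.637 ± 0.107 and 0.534 ± 0.053 CPM and was under the limit for testing. *Car9*, a HIF target that encodes the extracellular carbonic anhydrase IX, had 0.670 ± 0.370, 0.671 ± 0.284, 0.913 ± 0.284 and 0.869 ± 0.082 CPM. *Vegfa* differed by at most 0.07 on the log2 scale in any comparison of all embryos, and the other 2 stayed under 2 CPM in all 14 embryos.

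Of the mitochondrial members, *Bnip3*, a mitophagy receptor, had 58.9 ± 6.34, 55.8 ± 17.3, 73.8 ± 9.34 and 61.5 ± 15.5 CPM, with copies for 61.7% of its words. *Higd1a*, an inner membrane protein, had 49.9 ± 3.64, 52.1 ± 5.45, 45.4 ± 1.43 and 44.0 ± 2.04 CPM. Its mutant stages did not overlap, and the change of -0.24 (adjusted *P*=0.0332) fell short of the fold of 1.2. The collagen prolyl hydroxylase subunits *P4ha1* and *P4ha2* had 80.6 ± 1.97, 87.3 ± 12.6, 82.7 ± 6.14 and 79.5 ± 6.54 CPM, and 19.1 ± 1.04, 16.4 ± 2.04, 18.3 ± 1.01 and 15.2 ± 1.48 CPM. *P4ha2* was lower in the mutants at both stages without passing (log2 fold change -0.22 and -0.27, adjusted *P*=0.322 and 0.347), and all 4 mutants at E10.5 lay below all wild-type embryos.

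The histone demethylase *Kdm3a* had 113 ± 6.70, 125 ± 20.2, 139 ± 12.3 and 141 ± 19.1 CPM. The repressor *Bhlhe40* had 3.58 ± 0.454, 3.43 ± 1.03, 2.72 ± 0.413 and 2.47 ± 0.477 CPM, and *Ankrd37*, an ankyrin repeat protein, had 3.70 ± 0.380, 3.31 ± 0.595, 3.18 ± 0.186 and 3.27 ± 0.208 CPM. In wild type the stages did not overlap for any of these 3 genes. *Bhlhe40* had the same sign in both genotypes between stages (-0.40 and -0.47) and passed in neither (adjusted *P*=0.348 and 0.112).

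Mutant replicates 4 and 5 differed from the other mutants in many members at both stages. Above both other mutants at each stage were 8 members tested, *Slc2a1*, *Hk1*, *Pfkl*, *Pfkm*, *Aldoa*, *Gapdh*, *Ldhb* and *Bhlhe40*, and also *Adm*; 17.5% of all genes tested did so. Below were *Pgam1*, *Slc16a1*, *Pdk1* and *Higd1a*, beside 18.6% of all genes. The widest differences in mean log2(CPM + 1) were those of *Gapdh* (0.37 at E10.0, 0.50 at E10.5) and *Pdk1* (-0.64 and -0.29). *Slc16a1* differed by -0.44 and -0.35. *Ddit4* differed by 0.30 at E10.0 but by -0.08 at E10.5, while *Ndrg1* differed by -0.18 and -0.07. The part of these libraries in the genotype differences cannot be told apart from genotype, since no wild-type embryo was of this kind.

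**Figure D5:**
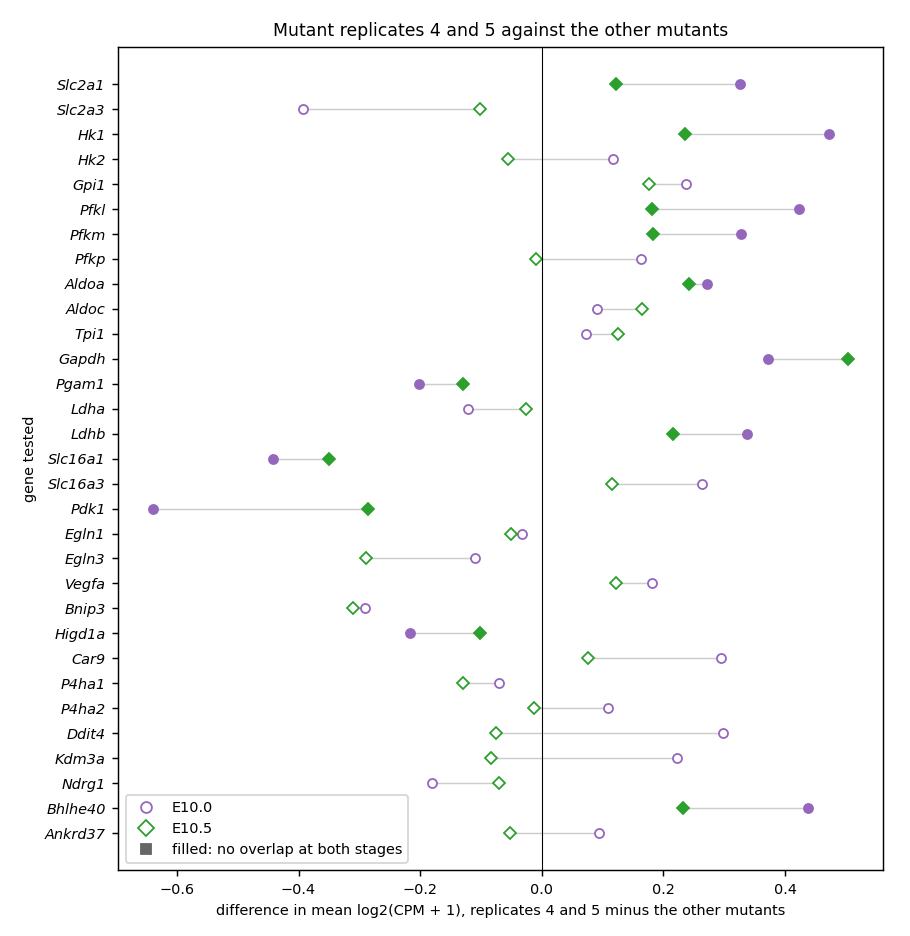
Difference in mean log2(CPM + 1) between mutant replicates 4 and 5 and the other mutants of the same stage (horizontal axis), at E10.0 (circles) and E10.5 (diamonds), for the 31 members tested. Symbols are filled for the 12 members in which both libraries lay on the same side of both other mutants at both stages; *Gapdh* lies farthest to the right and *Pdk1* farthest to the left.

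Other genes of these pathways were read from lists. None of 12 tested further glycolytic enzymes and transporters, of 8 genes of the pyruvate dehydrogenase complex or of 11 genes of the integrated stress response and mTORC1 stress was called between genotypes at E10.0 or E10.5 with all embryos. Of 12 genes of oxygen sensing and HIF itself, 1 was called at E10.0, the coactivator *Ep300* (130.2 ± 15.3 CPM in wild type against 164 ± 16.1 CPM in mutants, log2 fold change 0.33, adjusted *P*=0.0688, and 0.104 without mutant replicates 4 and 5), and none at E10.5. Of 31 other hypoxia response genes, 1 was higher in mutants at each stage, *Stc1*, which encodes the secreted hormone stanniocalcin 1. *Stc1* had 5.72 ± 0.659 CPM in wild type against 10.6 ± 2.55 CPM in mutants at E10.0 (0.89, adjusted *P*=6.2e-05) and 8.07 ± 0.440 and 12.03 ± 0.611 CPM at E10.5 (0.58, adjusted *P*=0.0324). Without mutant replicates 4 and 5 its adjusted *P* was 0.00961 at E10.0 but 0.106 at E10.5. In that fit 6 of the 31 were higher and 4 lower at E10.0, beside 6.23% and 10.2% of all genes. Of the 11 immediate early genes tested, 2 were higher in mutants at E10.5, *Egr1* (0.93, adjusted *P*=0.000989) and *Btg2* (0.32, adjusted *P*=0.0826).

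Between the stages, where *Ddit4* was higher at E10.5 in mutants, the stress response list held lower genes. In wild type 4 of its 11 genes were lower at E10.5 and in mutants 3, beside 4.74% and 8.40% of all genes called lower, with none higher and medians of -0.26 and -0.24, beside -0.01 and -0.01 over all genes. *Sesn2*, like *Ddit4* an inhibitor of mTORC1 signaling, had 14.9 ± 1.10 CPM at E10.0 and 11.01 ± 2.45 CPM at E10.5 in wild type (-0.44, adjusted *P*=0.0699). In mutants it had 12.6 ± 1.36 and 10.7 ± 1.34 CPM and did not pass (-0.24, adjusted *P*=0.251). Of the 31 other hypoxia response genes, 4 were higher and 1 lower at E10.5 in wild type and 5 higher and 4 lower in mutants. Of the 12 HIF and oxygen sensing genes, 1 was higher in wild type, and 2 were higher and 1 lower in mutants. Of the 12 further glycolytic genes, 1 was higher in wild type, and 1 was higher and 2 lower in mutants, where *Pfkfb2*, a bifunctional enzyme that sets the phosphofructokinase activator, rose from 9.71 ± 1.14 to 13.5 ± 2.03 CPM (0.47, adjusted *P*=0.00442). Of 8 pyruvate dehydrogenase genes, 1 was higher in mutants, the inhibitory kinase *Pdk2* (0.66, adjusted *P*=0.000305), and none in wild type.

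Markers of other cell types moved with the groups. At E10.0, 4 of 8 limb mesenchyme markers were lower in mutants, and their summed level was 1379 to 1597 CPM in wild type and 1141 to 1338 CPM in mutants. At E10.5, 3 of 8 were lower, with sums of 1589 to 1645 and 1295 to 1374 CPM. *Prrx2*, among the markers called at both stages (log2 fold change -1.01 and -0.83), is a SMAD4 target gene in the paper, so that these sums do not count mesenchyme cells. Of 4 mesothelium markers tested, 2 were higher in mutants at E10.0 (sums of 6.96 to 10.2 and 13.4 to 24.8 CPM) and 2 lower at E10.5 (9.997 to 12.9 and 5.76 to 9.41 CPM). Neither of the last 2, *Wt1* and *Upk3b*, passed at E10.5 without mutant replicates 4 and 5 (adjusted *P*=0.193 and 0.360). Likewise, 2 of 5 macrophage markers and 2 of 5 muscle precursor markers were higher in mutants at E10.0. Muscle precursor markers summed to 80.3 to 95.3 and 86.5 to 110 CPM at E10.0 and to 94.0 to 111 and 75.5 to 103 CPM at E10.5, when 1 of 5 was lower in mutants. The macrophage markers rose between the stages, 5 of 5 in each genotype, from sums of 2.60 to 5.99 CPM to 12.04 to 13.4 CPM in wild type and from 7.50 to 8.51 CPM to 14.3 to 21.6 CPM in mutants.

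Of 7 erythroid markers tested none was called in any of the 4 comparisons of all embryos, and 3 were higher at E10.5 in wild type without mutant replicates 4 and 5. Their sums of 2869 to 3802 CPM in wild type and 2704 to 5046 CPM in mutants at E10.0 and of 3755 to 5213 and 2826 to 4003 CPM at E10.5, overlapped throughout, and *Hba-a1*, *Hba-a2* and *Hbb-b1* were at 0 in all libraries. Only reads with 1 place in the genome were counted, and no absence of RNA is read from these zeros. Of 8 endothelium markers none was called between genotypes (311 to 354 and 334 to 395 CPM at E10.0, 311 to 331 and 327 to 377 CPM at E10.5), and of 10 ectoderm markers 1 was lower in mutants at E10.0 (272 to 339 and 222 to 311 CPM) and none at E10.5 (263 to 280.2 and 192 to 278 CPM). The 1 neural crest marker tested, *Erbb3*, was lower in mutants at E10.5 (-0.42, adjusted *P*=0.0394, and 0.182 without mutant replicates 4 and 5), with sums of the list of 11.5 to 13.6 and 11.5 to 11.8 CPM at E10.0 and 14.2 to 16.3 and 11.1 to 15.7 CPM at E10.5. Between the stages, 2 of 8 endothelium markers were lower at E10.5 in mutants with all embryos and 0 without replicates 4 and 5, and none was called in wild type. Of 10 ectoderm markers, 1 was lower in wild type, the dorsal ectoderm signal *Wnt7a* (-0.92, adjusted *P*=5.4e-05), and 2 were higher and 2 lower in mutants, where *Wnt7a* was again lower (-0.98, adjusted *P*=1.4e-07). Without replicates 4 and 5, 1 ectoderm marker was higher and 6 were lower in mutants. Limb mesenchyme markers had 1 of 8 lower in wild type, and 1 higher and 1 lower in mutants. Muscle precursor markers had 2 of 5 higher and 1 lower in wild type and 1 higher and 2 lower in mutants. The muscle regulator *Myog* was higher at E10.5 in wild type (4.61, from 0.206 to 5.10 CPM) and lower in mutants (-2.38, from 3.68 to 0.687 CPM). Mesothelium markers had 2 of 4 higher in wild type and 1 higher and 2 lower in mutants. The 2 lower were *Wt1* (-2.67, from 7.59 to 1.17 CPM) and *Upk3b* (-4.14, from 4.97 to 0.270 CPM). Each of these folds of *Myog*, *Wt1* and *Upk3b* had 1 group near or under 1 CPM. The part of these cell types in the differences of *Ddit4*, *Ndrg1*, *Slc16a3*, *Hk2*, *Ldha* and *Ldhb* was not tested.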

How the data were processed

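Poly(A) RNA of 14 forelimb bud samples was sequenced as single reads of 50 bases without strand. The deposited values are raw counts: the authors mapped the reads to mm9 with TopHat2 2.0.13, kept reads with 1 place in the genome and counted them per gene symbol with HTSeq (version not given in the sources used here). Here, genes on X, Y and M (1041 symbols) were left out and genes with at least 1 CPM in 3 samples kept. Groups came from the sample titles. Group pairs were compared by edgeR's exact test (edgeR 4.0.16, R 4.3.3, TMM, common and tagwise dispersion, 10 prior degrees of freedom, all 14 samples), and stage by genotype by its quasi-likelihood test. In the group pairs genes passed at an adjusted *P* of at most 0.1 and a fold of 1.2, and in the stage by genotype test at an adjusted *P* of at most 0.1 alone. The calculation was tested on simulated counts. Members and lists were chosen with earlier results of these data known. All 34 members are named with group means, and per-embryo values are given for members that passed, by smallest *P*, or whose genotype call changed without mutant replicates 4 and 5; other lists are named by their 3 smallest *P*.

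Replicates differed by more than counting noise in all pairs (chi-square per degree of freedom of at least 14.0). Replicate numbers recur between groups. Same-numbered samples of different genotype did not deviate together (mean correlation -0.08 over 4 pairs). Between stages, the mutants of numbers 1, 4 and 5 correlated at 0.57, 0.61 and 0.27 and the wild-type samples at -0.08, -0.11 and -0.28. The embryos of E10.0 and E10.5 are different embryos, so that a shared number may mark only a shared run of libraries. Alternatives were the quasi-likelihood test, DESeq2 1.42.0, RLE scaling, no CPM filter, X, Y and M kept, only the groups compared, *Rn45s* left out, the replicate number as a block, and each sample or mutant replicates 4 and 5 left out. Copies of 50-base transcript words were counted over mm9 with GENCODE vM1 exons.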

Additional observations from a re-analysis of the deposited data

Results flagged for a closer look

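Among 62 groups of 4 mutant embryos (31 members at 2 stages), 5 held an embryo far from the other 3 by Dixon's gap ratio at the 95% level, which chance gives in about 1 of 20 groups. *Ddit4* had 15.3 CPM in mutant replicate 3 of E10.0, against 22.1 to 22.9 CPM in the others. *Hk2* had 116 CPM in mutant replicate 4 of E10.0, against 99.6 to 101 CPM. *Bnip3* had 84.6 CPM in mutant replicate 1 of E10.5, against 51.8 to 56.3 CPM, and *Bhlhe40* had 1.76 CPM in the same embryo, against 2.65 to 2.80 CPM. *Car9* had 0.991 CPM in mutant replicate 4 of E10.5, against 0.818 to 0.847 CPM. Without replicate 3, *Ddit4* was still called lower in mutants at E10.0, as given with its values.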

How the results depend on the processing

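The members named as called in the fits of all embryos kept their direction in that comparison in all alternatives run. Members that were not called did not always, such as *Gapdh* between genotypes, at 0.04 and -0.14 (E10.0) and 0.10 and -0.16 (E10.5) with and without mutant replicates 4 and 5. At E10.0, the 2 members called between genotypes became 1 with only the groups compared, 6 without mutant replicates 4 and 5 and 5 with the replicate number as a block, and 1 to 3 with 1 embryo left out. Over all genes, the 819 called became 692, 2018 and 1961 in these 3 fits, and 254 to 1062 with 1 embryo left out. At E10.5, the 1 member called became 0 by the quasi-likelihood test and 2 with the replicate block, and 0 to 1 with 1 embryo left out. Over all genes, the 462 called became 341 and 280 in the first 2 fits, and 286 to 468 with 1 embryo left out. Between the stages in wild type, 3 became 8 with only the groups compared, 7 without mutant replicates 4 and 5 and 7 with the replicate block, and 0 to 4 with 1 embryo left out. The cause of these differences was not tested. In the mutants, 8 to 14 members were called with 1 embryo left out and 9 to 12 in the other alternatives, 12 of them with the replicate block. Without mutant replicates 4 and 5, the calls between stages over all genes went from 1256 to 1826 in wild type and from 2374 to 2151 in mutants. With the replicate block they went from 1256 to 1754 in wild type and from 2374 to 2586 in mutants. For the other fits between stages the counts over all genes are not given, and no gain or loss particular to the members is read from them. Of the calls in mutants, *Ddit4*, *Hk2*, *Ldha*, *Ldhb*, *Slc16a1* and *Slc16a3* passed in all 8 fits with 1 embryo left out and all 9 others, and *Hk1* was also lost with no CPM filter (adjusted *P*=0.118), only the groups compared (0.139) or *Rn45s* left out (0.102). *Ddit4* at E10.0 passed in all 7 and 9 fits, at adjusted *P* of 3.4e-05 to 0.0168, and *Ndrg1* was also lost with only the groups compared (0.142). In wild type, *Ldha* was also lost with no CPM filter (0.101). No interaction passed in any fit. *Eno2* and *Adm* had at most 53 reads per embryo, and smaller changes in them could not be seen at this depth. No change is read from the few reads of *Eno1*.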
